A study of Danio rerio with 8 samples.

Results

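The genes examined here encode the proteasome, the protease complex that degrades ubiquitin-tagged proteins. They were taken by name, as every gene of chromosomes 1 to 25 whose symbol begins with *psma*, *psmb*, *psmc*, *psmd* or *psme* followed by a digit. The rule found 51 genes among the 31428 named rows of those chromosomes and the 37114 rows of the whole table. By role they were 9 alpha ring genes, 7 constitutive beta ring genes, 7 inducible or tissue-specific beta genes, 7 genes of the ATPase ring, 1 base scaffold gene, 2 ubiquitin receptor genes, 9 lid genes, 3 assembly chaperones and 5 activator genes. The remaining gene, *psmc3ip*, shares only the prefix and encodes a meiotic recombination factor. The naming rule used no measured value, but the set was chosen with earlier results of these data known.

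The study asked how loss of *flrt2*, which encodes a fibronectin leucine-rich transmembrane protein, alters gene expression in zebrafish eyes that develop too small. RNA was sequenced from 4 *flrt2*-KO libraries and 4 WT libraries, each from about 40 pooled eyes of embryos at 36 hours post fertilization (hpf), and expression was given as FPKM, fragments counted per length of gene and size of library. The *flrt2*-KO fish carried a CRISPR/Cas9 deletion of 20 bp and were bred in the AB background, and the WT fish were AB. The labels give retina as the tissue and the methods give whole eyes, so changes in the share of a cell type and changes in RNA per cell cannot be told apart. Libraries are named by the suffix of their titles, 12_16, 1_19, 1_8_ysy and 2_17 for *flrt2*-KO and 12_16, 1_19, 1_8 and 1_8_ysy for WT. It is not stated whether the pools came from separate clutches, so p-values measure the spread between these libraries.

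The libraries held 13423932 to 14835885 reads each. *flrt2* itself was not lower in the mutant group, with 2.90, 3.99, 3.80 and 2.80 FPKM in *flrt2*-KO against 2.48, 2.33, 2.25 and 2.55 FPKM in WT. As deposited, every *flrt2*-KO library was above every WT library. The log2 difference was 0.40 ± 0.154 (SE) with an adjusted p of 0.110 (limma, Benjamini-Hochberg). Below, *flrt2*-KO means the libraries whose genotype label is *flrt2* mutant. All 13 retinal progenitor markers of the list used here were expressed in both groups, and of these *six3a* was higher and *hes2.2* and *six6b* were lower in *flrt2*-KO. Of 8 tested yolk and liver markers 6 were lower in *flrt2*-KO, and 4 of 5 tested blood markers were lower. Summed over all 11 listed yolk and liver markers, tested or not, the level was 27.42 to 56.31 FPKM in *flrt2*-KO against 73.68 to 102.8 FPKM in WT. Of 9 lens markers 3 were lower and 1 higher. Beside these counts, 8.28% of all genes tested were higher and 7.37% lower. With the reads of alternate-contig rows, described below, added to their genes, 6 of 8 yolk and liver, 2 of 6 blood, 1 of 9 lens and 2 of 13 progenitor markers were lower, and none of these markers was higher. The shares of all genes tested were then 6.06% higher and 5.07% lower. The part of these markers in the differences below was not tested.

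The proteasome consists of a barrel-shaped core particle, built of outer alpha rings and inner beta rings, and a regulatory particle that caps it. The beta subunits psmb5, psmb6 and psmb7 hold the chymotrypsin-like, caspase-like and trypsin-like active sites. The regulatory particle has a base, with a ring of ATPases that unfold substrates, and a lid that removes ubiquitin. In mammals, interferon exchanges the active beta subunits for inducible ones, which form the immunoproteasome. Most cells use the complex all the time, and developing eyes, where cells divide and differentiate at a high rate, depend on it for the timed removal of cell cycle proteins.

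In most proteasome genes the difference between *flrt2*-KO and WT eyes was small beside the spread between libraries. Of the 51 genes, 41 reached 0.5 FPKM in 4 or more libraries and were tested. Of these, 34 did not pass the test (adjusted p under 0.05 over all 21012 genes tested, limma on log2(FPKM + 0.5)), 3 were higher and 4 were lower. The 3 higher genes were *psmb5*, *psmc6* and *psmd9*, and the 4 lower genes were *psmb10*, *psmc1a*, *psmc4* and *psmd10*. Over all genes tested, which include unnamed rows, 8.28% were higher and 7.37% lower. The corresponding shares of the proteasome genes were 7.32% and 9.76%. With annotated chromosome and mitochondrial rows alone, 1034 genes were higher and 898 lower of 16575 tested, which are smaller shares than over all rows. The proteasome genes then again gave 3 higher and 4 lower of 41, shares above those of the annotated rows but resting on few genes. The median log2 fold change was 0.03 for the proteasome genes and -0.01 for all genes tested. The 34 genes that did not pass had log2 fold changes of -0.20 to 0.22, with SEs of 0.0951 to 0.358. In 4 proteasome genes every *flrt2*-KO library was above every WT library (11.4% of all genes tested were), and in another 4 every *flrt2*-KO library was below every WT library (9.76% of all genes tested).

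**Figure D1:**
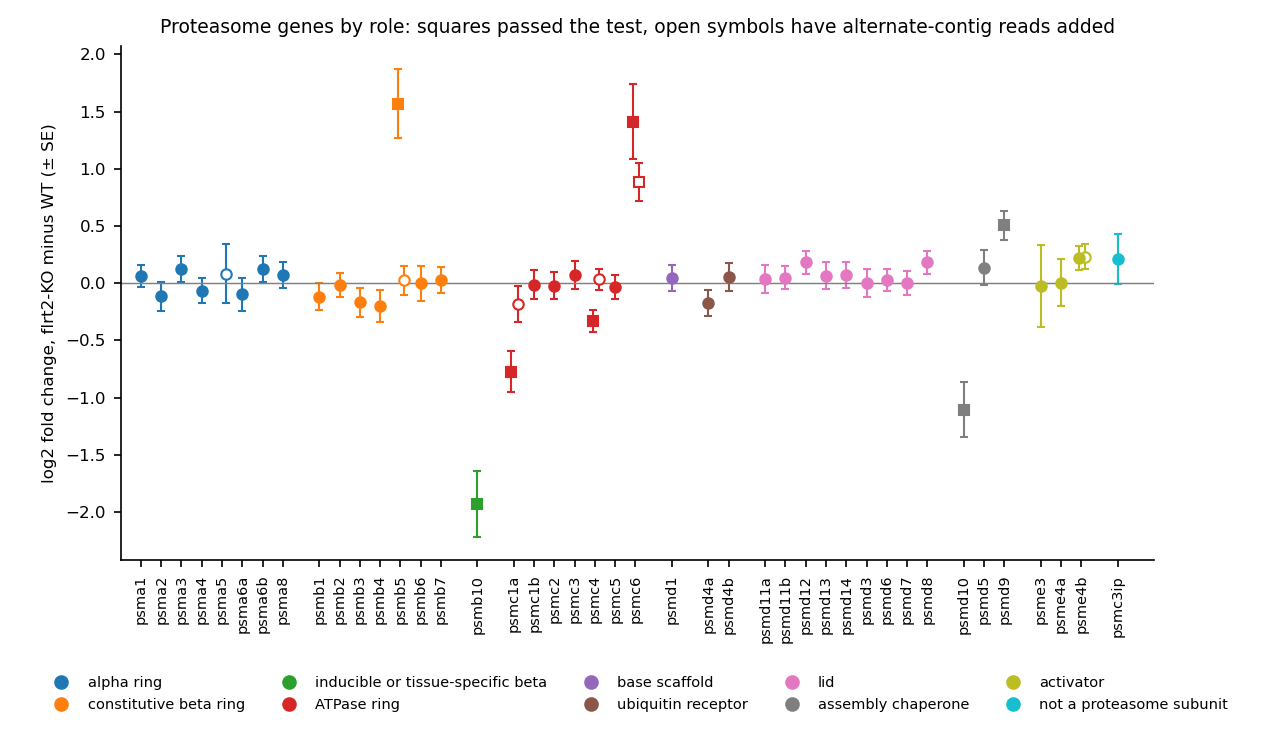
Log2 fold change of each tested proteasome gene, *flrt2*-KO minus WT, with its SE (vertical axis), grouped by role along the horizontal axis. Filled symbols use the chromosome row as deposited, open symbols add the reads of alternate-contig rows, and squares passed the test. Most genes lie within 0.22 of 0, and *psmb5*, *psmc4* and *psmc1a* move to near 0 once the alternate-contig reads are added.

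Several of these differences depended on where reads were counted. The zebrafish genome build used (GRCz11) carries alternate contigs, second versions of some regions, and the table lists genes found on them as separate unnamed rows. Such rows were matched to a gene by the same protein accession in the description, the same chromosome number and a distance of at most 0.2 Mb. This gave 7 rows for 6 proteasome genes, namely *psma5*, *psmb5*, *psmc1a*, *psmc4*, *psmc6* and *psme4b*. Only the row of *psmb5* had the same description word for word. Of the 5 genes with such a row that were tested, 4 passed as deposited, against 3 of the 36 without one. Over the whole table, genes with a matched alternate row were also called more often, with 17.3% higher and 14.9% lower of 1460 genes, against 5.78% and 4.99% of the 15082 annotated chromosome genes without one.

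Once the alternate-contig reads were added to their genes, 2 proteasome genes were higher and 2 lower of 42 tested, and 38 did not pass. The higher genes were *psmc6* and *psmd9* and the lower genes *psmb10* and *psmd10*. The background was then 6.06% higher and 5.07% lower of 19515 genes tested, against 4.76% in each direction for the proteasome genes.

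In the core particle, no alpha ring gene passed. The alpha rings form the gate through which substrates enter. *psma8*, the highest of them, averaged 190.9 ± 27.4 FPKM in *flrt2*-KO and 180.2 ± 11.1 FPKM in WT (SD, n = 4 each). In mammals its counterpart is a testis form of psma7, and the rule found no *psma7* row here. *psma2* was among the lowest, at 45.8 ± 7.85 FPKM in *flrt2*-KO and 49.3 ± 4.07 FPKM in WT, and its span overlaps *atad2* and *mrpl32*, so some of its reads are uncertain. Of the 7 alpha genes tested as deposited, 0 passed with limma, 0 had an unadjusted p under 0.05 and 0 passed with voom on the recovered reads, and their log2 fold changes lay between -0.12 and 0.12. The summed level of the alpha ring was 760.4 ± 103.0 FPKM in *flrt2*-KO and 740.2 ± 36.7 FPKM in WT.

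*psma5* showed how far the row matters. Its chromosome row (chromosome 11, 36342997 to 36350993) had 1 read in all *flrt2*-KO libraries together and 1 read in all WT libraries together. The row on the alternate contig had 45.8, 41.7, 40.5 and 22.9 FPKM in *flrt2*-KO, against 46.4, 32.3, 42.0 and 22.3 FPKM in WT. The groups overlapped, and the log2 difference of the combined gene was 0.08 ± 0.259 (SE) with an adjusted p of 0.875 (limma).

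The 7 constitutive beta genes included the most abundant transcripts of the set. *psmb1*, a structural subunit, had 243, 207, 176 and 247 FPKM in *flrt2*-KO, against 243, 243, 236 and 219 FPKM in WT, and *psmb7* averaged 192.8 ± 30.2 FPKM in *flrt2*-KO and 187.4 ± 5.40 FPKM in WT. *psmb4*, another structural subunit, averaged 177.8 ± 35.0 FPKM in *flrt2*-KO and 200.9 ± 5.91 FPKM in WT. *psmb6* had 115, 96.7, 90.6 and 151 FPKM in *flrt2*-KO, against 119, 113, 110 and 104 FPKM in WT. In all 4 genes the groups overlapped and no test passed, with SEs of 0.117 to 0.150 on the log2 scale.

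*psmb5*, which encodes the chymotrypsin-like subunit, was the only constitutive beta gene that passed as deposited. Its row on chromosome 2 (38373272 to 38392575) had 78.9, 83.4, 30.9 and 99.6 FPKM in *flrt2*-KO, against 25.2, 23.5, 20.9 and 19.97 FPKM in WT. The groups did not overlap, and the log2 fold change was 1.57 ± 0.303 (SE) with an adjusted p of 0.0064 (limma). The alternate-contig row of the same gene moved the other way, with 92.3, 65.9, 88.7 and 83.2 FPKM in *flrt2*-KO against 118, 136, 134 and 123 FPKM in WT, a log2 difference of -0.63 ± 0.118 and an adjusted p of 0.0051. Of all *psmb5* reads, the alternate row took 53.6% in *flrt2*-KO and 85.4% in WT. Added together, the reads gave 174, 151, 123 and 185 FPKM in *flrt2*-KO, against 147, 163, 159 and 147 FPKM in WT. The combined groups overlapped, with a log2 difference of 0.02 and an adjusted p of 0.931, so the gene as a whole did not pass. The *flrt2*-KO library 1_8_ysy, with 74.7% of its *psmb5* reads on the alternate row, lay closest to WT in this share.

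**Figure D2:**
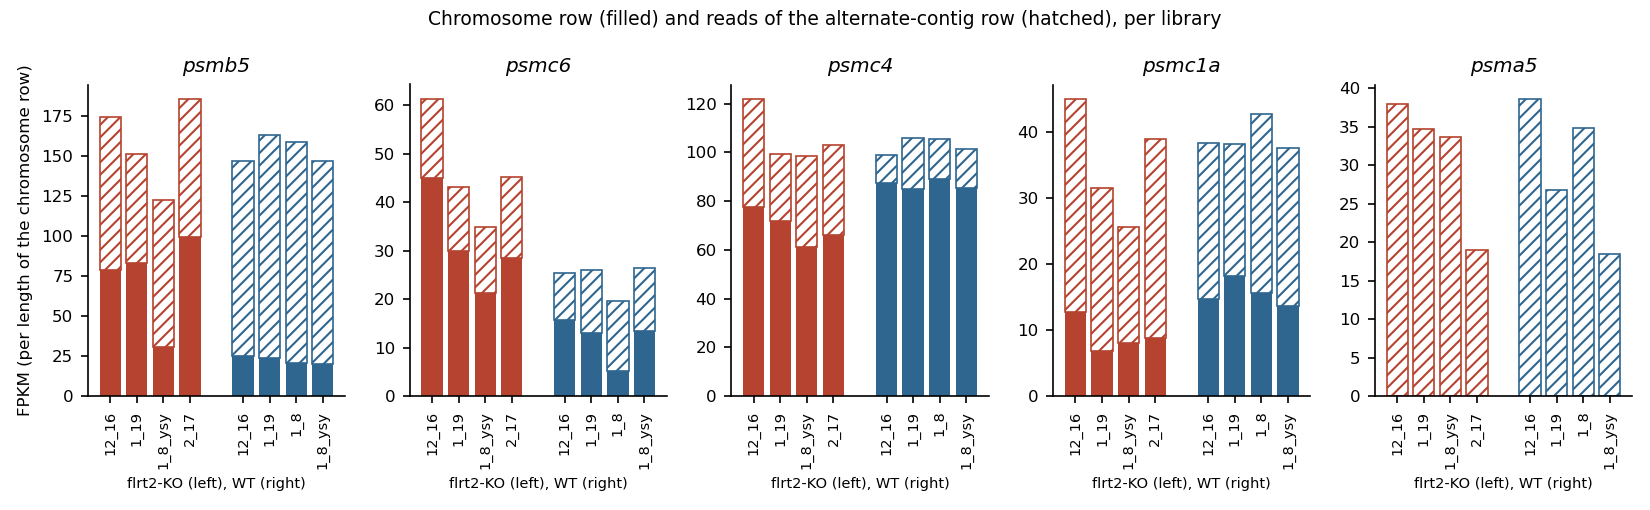
FPKM of 5 proteasome genes in each library (vertical axis, bars from 0), with the chromosome row filled and the reads of the alternate-contig row hatched, *flrt2*-KO libraries in red on the left and WT libraries in blue on the right. For *psmb5* the filled part is larger in *flrt2*-KO while the whole bars overlap, for *psmc6* the whole bars stay higher in *flrt2*-KO, and *psma5* has reads on the alternate row alone apart from 1 read in each group.

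The inducible and tissue-specific beta genes were nearly silent, apart from *psmb10*. In mammals, PSMB10 takes the place of PSMB7 in the immunoproteasome. *psmb10* (chromosome 4, 77207693 to 77218637) had 1.52, 0.906, 1.16 and 1.13 FPKM in *flrt2*-KO, against 3.30, 10.6, 6.31 and 5.16 FPKM in WT. Every *flrt2*-KO library was below every WT library, and the WT libraries varied more among themselves. The log2 fold change was -1.93 ± 0.286 (SE) with an adjusted p of 0.0014 (limma), the largest of the 41 tested proteasome genes in either direction. Within pairs of libraries with the same title suffix the log2 differences were -0.91, -2.98 and -1.77. Their shared sign follows from the groups not overlapping. No alternate-contig row was matched to *psmb10*. The file describes its protein by the closest match, the beta type-7 subunit, so the name *psmb10* rests on the symbol.

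The other 6 inducible or tissue-specific beta genes did not pass the filter. *psmb8a*, *psmb9a*, *psmb11a*, *psmb11b* and *psmb13a* had at most 12 reads summed over the 4 *flrt2*-KO libraries and at most 8 over the 4 WT libraries. *psmb8a*, for one, had 1 read in *flrt2*-KO and 0 in WT, where 0 reads allow up to 0.0306 FPKM over the group (3 reads, counting error only). *psmb12* had 7, 6, 10 and 13 reads in *flrt2*-KO, against 5, 1, 4 and 1 reads in WT. All *flrt2*-KO libraries were above all WT libraries for it (0.747 ± 0.277 against 0.208 ± 0.155 FPKM), but it was not tested in the main fit. *psmb8a* and *psmb13a* are annotated across the *psmb9a* and *psmb12* region of chromosome 19, so these few reads could be assigned to more than 1 of them.

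Of 21 interferon and antigen presentation genes on the list, 7 were tested and the others did not reach the filter. Of the 7, 1 was higher and 0 were lower with limma, and the same with voom. The share higher was 14.3%, where 8.28% of all genes tested were higher and 7.37% lower. At an unadjusted p under 0.05, 2 were higher and 0 lower. The higher gene was *mxc*, a member of the interferon-induced Mx family, with 5.19, 1.58, 3.36 and 1.98 FPKM in *flrt2*-KO against 0.373, 0.661, 0.778 and 0.559 FPKM in WT (log2 fold change 1.59, adjusted p 0.0055, limma). Of 10 macrophage and leukocyte markers, 5 were tested and 0 passed with limma in either direction, 0 with voom and 0 at an unadjusted p under 0.05. With alternate-contig reads added 7 were tested and 1 passed, the lysozyme gene *lyz*, which was higher in *flrt2*-KO (log2 fold change 1.94, adjusted p 0.0307, limma). That share was 14.3%, against 6.06% of all genes tested that were higher with these reads added. On the chromosome rows the summed level of the 10 markers was 5.80 to 19.32 FPKM in *flrt2*-KO and 9.472 to 20.13 FPKM in WT, and *coro1a* was listed at 0 in all libraries on its chromosome row. The part of white blood cells in the *psmb10* difference was not tested.

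Among the 7 genes of the ATPase ring, *psmc2*, *psmc3*, *psmc5* and *psmc1b* did not pass. *psmc3* averaged 124.5 ± 19.4 FPKM in *flrt2*-KO and 117.3 ± 5.16 FPKM in WT. *psmc5* averaged 122.2 ± 15.6 FPKM in *flrt2*-KO and 124.4 ± 2.98 FPKM in WT. Their log2 fold changes ranged from -0.03 to 0.07. The 3 ATPase genes that passed as deposited were those with an alternate-contig row.

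*psmc6* passed as higher on its chromosome row and with the alternate-contig reads added, but not on the alternate row alone. Its chromosome row (chromosome 20, 9763364 to 9776334) had 45.1, 29.98, 21.2 and 28.6 FPKM in *flrt2*-KO, against 15.8, 13.1, 5.16 and 13.5 FPKM in WT, a log2 fold change of 1.41 ± 0.325 (SE) and an adjusted p of 0.0151 (limma). The alternate row had 16.02, 12.96, 13.6 and 16.5 FPKM in *flrt2*-KO, against 9.46, 12.9, 14.3 and 12.9 FPKM in WT. Its groups overlapped and it did not pass (log2 difference 0.25, adjusted p 0.280, limma), so most of the combined difference lay on the chromosome row. The combined reads gave 61.2, 43.0, 34.9 and 45.1 FPKM in *flrt2*-KO, against 25.3, 26.1, 19.5 and 26.4 FPKM in WT. The combined groups did not overlap, and the log2 fold change was 0.89 with an adjusted p of 0.0074. In the 3 pairs of libraries with the same suffix the differences were 1.26, 0.71 and 0.40 on the log2 scale of the combined reads. Their shared sign follows from the groups not overlapping.

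*psmc4* and *psmc1a* were lower as deposited but not once the alternate-contig reads were added. *psmc4* (chromosome 16, 41794715 to 41805240) had 77.5, 72.0, 61.2 and 65.9 FPKM in *flrt2*-KO, against 87.4, 84.8, 89.1 and 85.5 FPKM in WT (log2 fold change -0.33 ± 0.0955, adjusted p 0.0416, limma). Its alternate row had 23.9, 14.7, 20.2 and 20.2 FPKM in *flrt2*-KO, against 6.21, 11.4, 8.76 and 8.60 FPKM in WT, and passed in the other direction (log2 difference 1.14, adjusted p 0.0028). Combined, *psmc4* averaged 105.6 ± 10.9 FPKM in *flrt2*-KO and 102.8 ± 3.35 FPKM in WT, with a log2 difference of 0.03 and an adjusted p of 0.867. With the title suffix as a replicate block the chromosome row alone had an adjusted p of 0.152, and leaving out any 1 library other than *flrt2*-KO 12_16 also ended the call, with adjusted p between 0.0715 and 0.110.

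*psmc1a* and *psmc1b* encode the same ATPase and are a duplicated pair of zebrafish. *psmc1a* (chromosome 17, 8899016 to 8941421) had 12.7, 6.78, 8.09 and 8.75 FPKM in *flrt2*-KO, against 14.8, 18.2, 15.6 and 13.6 FPKM in WT (log2 fold change -0.77 ± 0.177, adjusted p 0.0147, limma). With its alternate row it had 44.9, 31.4, 25.6 and 38.9 FPKM in *flrt2*-KO, against 38.3, 38.2, 42.6 and 37.6 FPKM in WT, and the groups overlapped (log2 difference -0.18, adjusted p 0.509). With the suffix as a replicate block the chromosome row alone had an adjusted p of 0.0869. *psmc1b*, the more abundant copy, had 63.2, 58.1, 46.4 and 65.5 FPKM in *flrt2*-KO, against 55.0, 68.8, 54.4 and 56.3 FPKM in WT, and did not pass.

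None of the scaffold, ubiquitin receptor and lid genes found by the naming rule passed. The base scaffold gene *psmd1* averaged 111.7 ± 15.2 FPKM in *flrt2*-KO and 107.6 ± 7.65 FPKM in WT. Of the 9 lid genes, 0 passed with limma, 0 with voom and 0 at an unadjusted p under 0.05. All had a log2 fold change above 0, from 0.001 to 0.18, with SEs of 0.0951 to 0.124. Of all 41 tested proteasome genes, 24 were above 0 and 17 below. Equal column sums moved the median of the proteasome genes from 0.03 to -0.04, so the sign of the smallest values rests on the scaling. *psmd14*, which encodes the deubiquitinase of the lid, had 110, 87.2, 93.4 and 122 FPKM in *flrt2*-KO, against 95.7, 95.4, 103 and 94.9 FPKM in WT. *psmd12*, a lid scaffold gene, had 90.3, 76.6, 71.7 and 71.1 FPKM in *flrt2*-KO, against 65.6, 73.2, 68.7 and 64.3 FPKM in WT, and its groups overlapped (adjusted p 0.273, limma). The duplicates *psmd11a* and *psmd11b* were at like levels of 20.70 ± 3.07 and 18.96 ± 1.501 FPKM in *flrt2*-KO, against 19.99 ± 1.51 and 18.29 ± 1.285 FPKM in WT. Of the ubiquitin receptor pair, *psmd4b* was the more abundant, at 69.0 ± 11.5 FPKM in *flrt2*-KO and 65.8 ± 3.755 FPKM in WT, and *psmd4a* averaged 14.7 ± 2.16 FPKM in *flrt2*-KO and 16.5 ± 0.107 FPKM in WT.

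The scaffold PSMD2 lies outside the rule, since the 3 rows that carry its protein accession are on scaffolds and not on a chromosome. The row named PSMD2 had 83.2, 69.0, 62.5 and 73.7 FPKM in *flrt2*-KO, against 66.6, 72.4, 60.7 and 65.4 FPKM in WT. CABZ01067681.1, the next row, averaged 37.9 ± 6.23 FPKM in *flrt2*-KO and 34.5 ± 1.76 FPKM in WT, and the unnamed row averaged 15.1 ± 5.51 FPKM in *flrt2*-KO and 20.3 ± 2.71 FPKM in WT. The groups overlapped in each of the 3 rows, which were not added together.

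Of the 3 assembly chaperones of the base, 2 passed in opposite directions. These proteins hold ATPase subunits while the base forms and leave the finished complex. *psmd10*, known as gankyrin in mammals (chromosome 14, 28464736 to 28469244), had 0.893, 0.374, 0.462 and 0.850 FPKM in *flrt2*-KO, against 2.92, 1.41, 1.89 and 1.66 FPKM in WT. Every *flrt2*-KO library was below every WT library, at 46 reads summed over *flrt2*-KO and 154 over WT, with a log2 fold change of -1.10 ± 0.238 (SE) and an adjusted p of 0.0109 (limma). The log2 differences in the 3 suffix pairs were -1.30, -1.13 and -1.17, and their shared sign follows from the groups not overlapping. The gene overlaps *nxt2* on the other strand, which averaged 0.706 FPKM in *flrt2*-KO and 1.43 FPKM in WT and did not pass, and no use of strand in counting is stated, so reads of the shared stretch cannot be told apart.

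*psmd9* (chromosome 7, 72003301 to 72011167) had 33.7, 28.7, 23.0 and 29.6 FPKM in *flrt2*-KO, against 17.9, 22.3, 19.6 and 20.1 FPKM in WT. The groups did not overlap, although the lowest *flrt2*-KO library, 1_8_ysy, was close to the highest WT library. The log2 fold change was 0.51 ± 0.127 (SE) with an adjusted p of 0.0226 (limma). With the suffix as a replicate block the adjusted p was 0.118, and it was 0.0544 to 0.0642 when *flrt2*-KO 12_16, 1_19 or 2_17 or WT 12_16, 1_8 or 1_8_ysy was left out. *psmd5*, the third chaperone, had 25.7, 21.6, 19.3 and 26.7 FPKM in *flrt2*-KO, against 16.30, 24.999, 23.30 and 20.505 FPKM in WT, and did not pass.

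**Figure D3:**
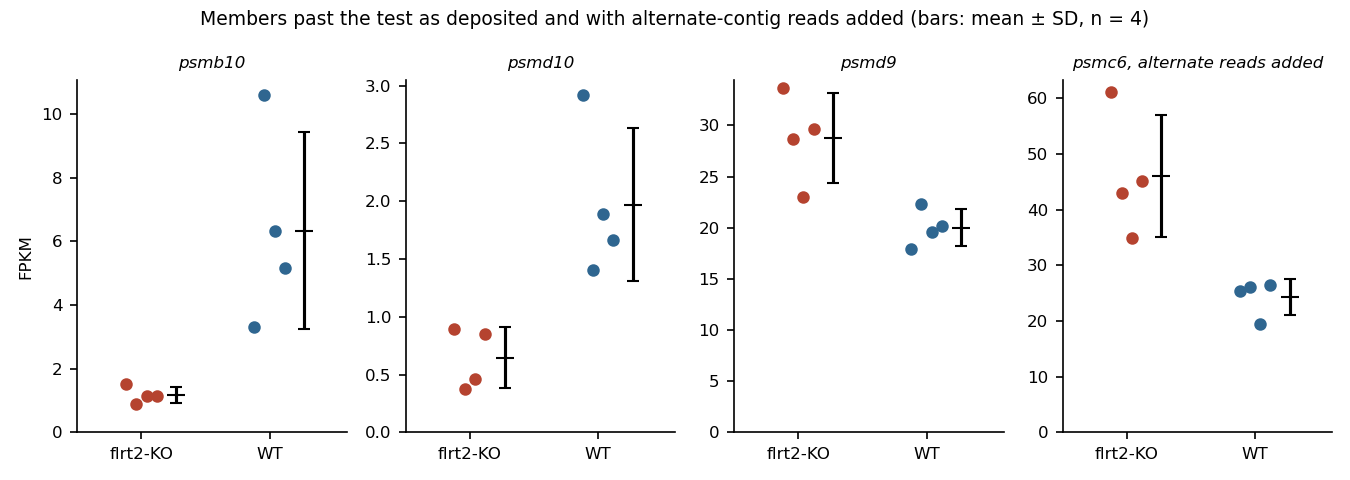
FPKM of the 4 genes that passed both as deposited and with alternate-contig reads added (vertical axes from 0), 1 point for each library, *flrt2*-KO left of WT, with the mean and SD beside the points (n = 4). *psmb10* and *psmd10* lie below WT in every *flrt2*-KO library, at levels under 1.6 FPKM, and *psmd9* and *psmc6* lie above it.

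Within 0.5 Mb of each of the 7 genes that passed as deposited, 0 to 4 other tested genes passed, of 8 to 24 tested. The share was 20% near *psmd10*, 18.2% near *psmc4*, 13.04% near *psmb10* and 8.33% or less near the other 4, against 15.6% of all genes tested, in either direction.

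Of the activators, which open the gate of the core particle in place of the regulatory particle, 3 of 5 were tested and 0 passed with limma, 0 with voom and 0 at an unadjusted p under 0.05. *psme3*, which encodes a nuclear activator, had 10.4, 19.1, 38.3 and 27.5 FPKM in *flrt2*-KO, against 17.2, 24.8, 16.3 and 32.7 FPKM in WT. In both groups the library 1_8_ysy was highest, and the SD in *flrt2*-KO, 0.783 on the log2 scale, was the largest of the 41 tested genes. *psme4b*, a copy of the PA200 activator gene, had 15.4, 16.5, 14.2 and 13.5 FPKM in *flrt2*-KO, against 11.3, 13.41, 13.17 and 12.997 FPKM in WT. All *flrt2*-KO libraries were above all WT libraries, but the adjusted p was 0.206 (limma), and the other copy, *psme4a*, averaged 0.909 ± 0.108 FPKM in *flrt2*-KO and 0.937 ± 0.392 FPKM in WT. *psme1* had 0 reads in all libraries, which allows up to 0.0460 FPKM in *flrt2*-KO and 0.0423 FPKM in WT, and *psme2* had 40 reads in *flrt2*-KO and 37 in WT. In mammals PSME1 and PSME2 form the interferon-induced activator.

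The 2 remaining members were *psma6l*, with 23 reads in *flrt2*-KO and 20 in WT, and *psmc3ip*, with 18.2 ± 4.26 FPKM in *flrt2*-KO and 15.8 ± 4.46 FPKM in WT. *psmc3ip* did not pass.

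The median level of the proteasome genes differed between libraries of both groups, over a wider range in *flrt2*-KO than in WT. Correlations between the genes were not computed. The median over the 41 tested genes, as a log2 difference from the WT mean, was 0.18 in *flrt2*-KO 12_16, -0.02 in 1_19, -0.23 in 1_8_ysy and 0.14 in 2_17, against -0.04, 0.09, 0.00 and -0.04 in WT 12_16, 1_19, 1_8 and 1_8_ysy. The same median over all genes tested stayed within 0.02 of 0 in every library. The library 1_8_ysy was the lowest of the *flrt2*-KO group in 31 of the 41 proteasome genes (75.6%), against 25.8% of all genes tested. It also had the fewest reads of the 8 libraries, and the part of depth was not tested. With equal column sums in each library (TPM) it stayed lowest in 28 of 41 genes, and the median of 2_17 was -0.07. That scaling moved the median of 2_17 over all genes tested to -0.18. The median of the proteasome genes in this library thus lay above that of all genes under either scaling. In WT, the library 1_19 was the highest of its group in 25 of the 41 genes (61.0%), against 26.9% of all genes tested. With equal column sums, WT 1_8 was the lowest of its group in 28 of 41 (68.3%), against 30.05% of all genes tested. As deposited it was the lowest in 10 of 41, so this ranking depended on the scaling.

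The spread between libraries was also larger in *flrt2*-KO for most of these genes. The SD on the log2 scale was larger in *flrt2*-KO than in WT in 35 of the 41 proteasome genes (85.4%), against 48.9% of all genes tested. Its median was 0.215 in *flrt2*-KO and 0.0856 in WT for the proteasome genes, and 0.233 in *flrt2*-KO and 0.239 in WT for all genes tested. At a mean of at least 50 FPKM, the median was 0.2141 in *flrt2*-KO and 0.07361 in WT for 24 proteasome genes. For all 1153 tested genes at that level it was 0.1623 in *flrt2*-KO and 0.1488 in WT. The SD was larger in *flrt2*-KO in all 24 of these proteasome genes, against 55.85% of the 1153 genes. With equal column sums the SD was larger in *flrt2*-KO in 34 of 41 genes, and without the *flrt2*-KO library 1_8_ysy in 32 of 41. This comparison was chosen after the values were seen and was not tested. The sum over all 51 genes was 3773, 3228, 2783 and 3697 FPKM in *flrt2*-KO and 3204 to 3454 FPKM in WT.

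**Figure D4:**
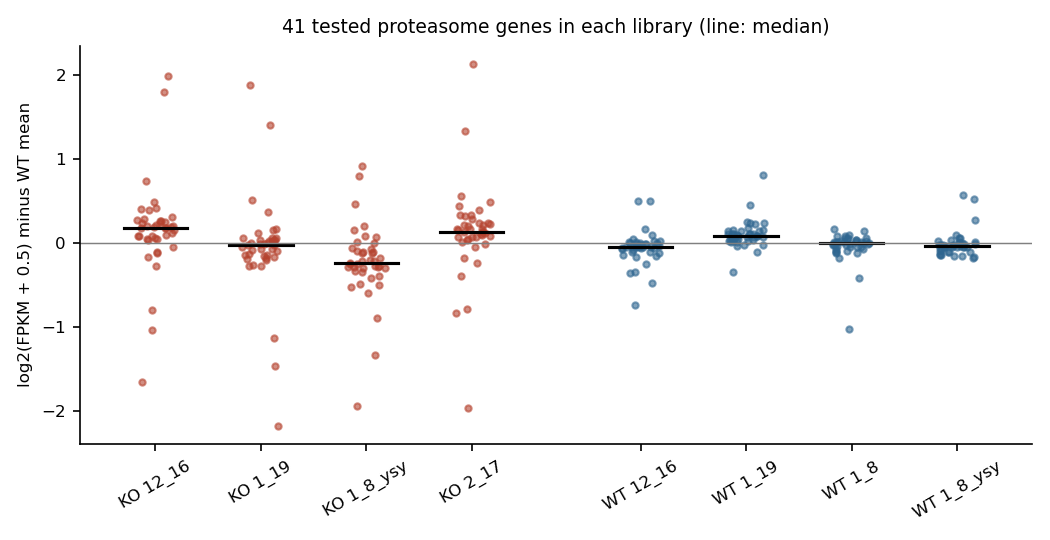
Log2(FPKM + 0.5) of the 41 tested proteasome genes minus each gene's WT mean (vertical axis), 1 point for each gene and a line at the median, for the 4 *flrt2*-KO libraries on the left and the 4 WT libraries on the right. The medians of *flrt2*-KO run from -0.23 to 0.18 and those of WT from -0.04 to 0.09.

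Genes that work with the proteasome were taken from a list of 84 ubiquitin pathway genes, of which 77 were found and 73 tested. Of these, 12 were higher, 2 were lower and 59 did not pass, with a median log2 fold change of 0.04. These shares were 16.4% higher and 2.74% lower, against 8.28% and 7.37% of all genes tested. With alternate-contig reads added, 6 were higher and 2 lower of 75 tested, or 8% and 2.67% against 6.06% and 5.07%. The genes that passed in both were *ubb*, *ube2na*, *ube2v1*, *ube2v2*, *ipo9* and *psmg3*, which were higher, and *ube2h*, which was lower. *cul5a*, a cullin scaffold of ubiquitin ligases, was tested only with the added reads and was lower (log2 fold change -2.35, adjusted p 9.2e-04, limma).

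*ubb*, a polyubiquitin gene, had 38.9, 28.2, 45.2 and 38.3 FPKM in *flrt2*-KO, against 17.2, 12.6, 15.8 and 15.1 FPKM in WT. The groups lay far apart, with a log2 fold change of 1.27 ± 0.152 (SE) and an adjusted p of 4.1e-04 (limma). Of the 4 ubiquitin genes on the list only *ubb* passed. *ubc*, a far more abundant polyubiquitin gene, had 859, 845, 887 and 807 FPKM in *flrt2*-KO, against 923, 924, 1050 and 961 FPKM in WT. Every *flrt2*-KO library was below every WT library for *ubc*, but it did not pass (log2 difference -0.18, adjusted p 0.187, limma). The summed level of the 4 genes was 2492 to 3489 FPKM in *flrt2*-KO and 2620 to 3012 FPKM in WT. *ube2na*, *ube2v1* and *ube2v2* encode subunits of the enzyme that builds ubiquitin chains linked through lysine 63, which serve in signalling and DNA repair and are not the usual tag for degradation. *ube2na* averaged 14.4 ± 2.04 FPKM in *flrt2*-KO and 7.34 ± 0.781 FPKM in WT, *ube2v1* 108.5 ± 20.2 FPKM in *flrt2*-KO and 73.6 ± 3.49 FPKM in WT, and *ube2v2* 106.1 ± 9.17 FPKM in *flrt2*-KO and 75.2 ± 6.72 FPKM in WT. In each of the 3 genes every *flrt2*-KO library was above every WT library. *ube2nb*, the more abundant copy of *ube2na*, averaged 82.3 ± 8.92 FPKM in *flrt2*-KO and 65.9 ± 3.54 FPKM in WT. Its groups did not overlap, but it did not pass (log2 difference 0.32, adjusted p 0.0581, limma). *ube2h*, another ubiquitin-conjugating enzyme, averaged 16.2 ± 0.874 FPKM in *flrt2*-KO and 24.1 ± 2.64 FPKM in WT.

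*psmg3*, a chaperone of the alpha ring, had 36.3, 28.2, 32.3 and 36.3 FPKM in *flrt2*-KO, against 21.64, 21.90, 30.56 and 20.52 FPKM in WT, with overlapping groups and a log2 fold change of 0.49 (adjusted p 0.0404, limma). *ipo9*, an importin that carries proteasomes into the nucleus in mammals, averaged 17.4 ± 1.06 FPKM in *flrt2*-KO and 11.4 ± 1.64 FPKM in WT. *pomp*, which matures the beta ring, averaged 93.8 ± 14.3 FPKM in *flrt2*-KO and 99.5 ± 7.33 FPKM in WT, and *psmg1* and *psmg2* did not pass. Of 7 tested genes for the transcriptional control of proteasome genes, 0 passed with limma, 0 with voom and 0 at an unadjusted p under 0.05. Among them *nfe2l1b*, a copy of the gene for the factor that raises proteasome transcription when the complex is inhibited, averaged 0.538 ± 0.0996 FPKM in *flrt2*-KO and 0.558 ± 0.0322 FPKM in WT, and *nfe2l1a* was at 0.0294 FPKM or less on average in either group.

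Most of the remaining genes that passed as deposited did so on the chromosome row alone. *vcp*, which encodes the p97 segregase that feeds substrates to the proteasome, had 57.6, 52.0, 57.3 and 59.0 FPKM in *flrt2*-KO, against 16.8, 13.95, 17.5 and 18.5 FPKM in WT (log2 fold change 1.73). With alternate-contig reads added its log2 difference was -0.18 with an adjusted p of 0.335 (limma). *ube2l3a* (3.10 as deposited, 0.22 with the added reads), *uchl5* (0.96 and 0.12), *ube2s* (0.83 and -0.12) and *npepps* (0.61 and 0.02) likewise lost most of their log2 fold change. So did *adrm1*, the gene of the ubiquitin receptor that binds uchl5, with a log2 fold change of -0.46 as deposited and -0.04 with the added reads. *ECPAS*, a proteasome-associated scaffold gene, kept its log2 fold change of 0.50, with an adjusted p of 0.0429 as deposited and 0.0504 among the genes tested with the added reads.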

How the data were processed

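Total RNA of 8 pooled eye samples (4 *flrt2*-KO, 4 WT) was sequenced as 150 bp paired reads. The methods name the NEBNext Ultra kit and the labels the TruSeq kit. The authors used GRCz11 for alignment (HISAT2 2.0.5), obtained gene counts from featureCounts 1.5.0-p3 and deposited FPKM values in 1 table. Multiplied by gene length, 100% of the values came out as whole reads (tolerance 1e-06), with 13423932 to 14835885 per library. The library size behind the FPKM was not this read total. Its ratio to the total ran from 0.930 in *flrt2*-KO 2_17 to 1.07 in WT 12_16. The summed FPKM ran from 418891 in WT 12_16 to 507015 in *flrt2*-KO 2_17. The voom fit used the same sizes, and equal column sums removed them. Floors and read sums cover counting error only.

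Values were taken as log2(FPKM + 0.5), and fold changes on that scale understate those of low genes. Genes with a level of 0.5 FPKM or more in 4 or more libraries were fitted with limma 3.58.1 (trend, robust) in R 4.3.3, and p was adjusted over all 21012 genes by the Benjamini-Hochberg method. A gene passed at an adjusted p under 0.05. Tables and figures used Python 3.11.15, numpy 2.4.6, pandas 2.3.3 and matplotlib 3.10.9. Data were also simulated for the *flrt2*-KO against WT comparison on 20708 genes. The fit recovered 74% of genes changed by 1 and 96% of genes changed by 2 on the log2 scale, and called 0.0975% of unchanged genes. The simulated libraries were independent, with the same dispersion for all genes, and only genes with a mean of at least 1 FPKM were changed. Only 100 genes were changed by 1 and 99 by 2, a far smaller share than the 15.65% of genes called in the data. Both rates depend on that share. Shifts shared by many genes of a library were not simulated, so these rates hold for those settings only.

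Pairs of libraries of 1 group differed by a chi-square per degree of freedom of 9.79 to 25.1, so all were counted as separate. Title suffixes 12_16, 1_19 and 1_8_ysy occur in both groups, and their meaning is not given. The deviations of these pairs from their group means correlated over genes at r = 0.141, 0.122 and 0.106. Pairs with unlike suffixes gave r of -0.223 to 0.112. Among them *flrt2*-KO 2_17 with WT 1_8_ysy (0.112) and *flrt2*-KO 1_8_ysy with WT 12_16 (0.107) exceeded the 1_8_ysy pair. Whether a shared suffix marks a true pair is thus uncertain. The suffix was used as a block in 1 alternative, in which *flrt2*-KO 2_17 and WT 1_8 have no partner.

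The proteasome genes and all lists (ubiquitin pathway, interferon and antigen presentation, and markers of progenitors, lens, pigment epithelium, blood, macrophages, yolk and liver, and muscle) were chosen with earlier results of these data known. Of 8 pigment epithelium markers 0 passed (1 lower at an unadjusted p under 0.05, 0 with voom), and of 4 tested muscle markers 1 was lower. Of all genes tested, 8.28% were higher and 7.37% lower. Named were *flrt2*, members that passed in either fit and their duplicates, the active-site, inducible and activator genes, the 3 highest and 3 lowest tested members, those with an alternate-contig row, *psmc3ip*, and the ubiquitin pathway genes that passed. *psmd12*, *psmd14* and other lid or alpha genes were named as examples after their values were seen. Alternatives were pseudocounts of 0.1 and 1, a minimum of 1 FPKM or no minimum, scaling by median ratios, equal column sums, quantile normalization, no trend or robust prior, voom on recovered reads, the suffix block, alternate-contig reads added, annotated chromosome and mitochondrial rows alone, and each library left out.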

Additional observations from a re-analysis of the deposited data

Results flagged for a closer look

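Of 82 groups of 4 libraries (41 genes in *flrt2*-KO and in WT), 7 had 1 library set apart from the other 3, by Dixon's test at its 95% critical value, where chance gives about 1 in 20. In *flrt2*-KO this was *psmd11b*, at 21.2 FPKM in 12_16 against 18.08 to 18.37 FPKM in the others. In WT 1_19 it was *psmd3*, at 152.4 FPKM (others 137.3 to 138.6), *psmc1b*, at 68.83 FPKM (others 54.42 to 56.32), and *psmd11a*, at 22.25 FPKM (others 19.04 to 19.39). In WT 1_8 it was *psmb7*, at 195.4 FPKM (others 184.0 to 185.3), and *psmd14*, at 103.1 FPKM (others 94.93 to 95.73). In WT 1_8_ysy it was *psme4a*, at 1.52 FPKM (others 0.6837 to 0.8006). None of these genes passed the test between the groups.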

How the results depend on the processing

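Of the 7 proteasome genes that passed as deposited, *psmb10*, *psmc6* and *psmd10* kept their direction and passed under all 20 alternatives, with log2 fold changes of -2.30 to -1.66, 0.89 to 1.58 and -1.61 to -0.84. The counts were 3 higher and 4 lower, and with alternate-contig reads added 2 higher and 2 lower. With no minimum level 50 proteasome genes were tested, of which 4 were higher and 3 lower. With the replicate block 2 were lower. Leaving out 1 library gave 2 to 3 higher and 3 to 4 lower. With alternate-contig reads added, the log2 difference of *psmc4* changed sign but was near 0 (0.033, adjusted p 0.867, limma), and 12 ubiquitin pathway genes higher became 6. With quantile normalization 4 ubiquitin pathway genes were lower, and leaving out 1 library gave 1 to 4. The median log2 fold change of the proteasome genes stayed between -0.04 and 0.10. *flrt2* stayed at 0.33 to 0.48 without passing.

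Chosen after seeing the data, alternate-contig reads were also added together with a second choice. With equal column sums 1 proteasome gene was higher, 2 were lower, 5 ubiquitin pathway genes were higher, and *psmb5* was at -0.046. With the replicate block 1 was higher, 2 were lower, 3 ubiquitin pathway genes were higher, *psmb5* was at -0.042 and *psmc4* at 0.054. Leaving out 1 library as well gave 1 to 2 higher, 2 to 2 lower, 3 to 5 ubiquitin pathway genes higher, -0.057 to 0.142 for *psmb5* and -0.037 to 0.065 for *psmc4*. Among these, *psmb5* changed sign, to -0.027 without *flrt2*-KO 12_16 and to -0.057 without 2_17. *psmc4* changed sign to 0.061, 0.065 and 0.043 without *flrt2*-KO 1_19, 1_8_ysy and 2_17. It was 0.014, 0.047, 0.044 and 0.026 without WT 12_16, 1_19, 1_8 and 1_8_ysy. These values were near 0, with adjusted p of 0.755 or more (limma). Under the combined settings, *psmb10*, *psmc6* and *psmd10* passed in all 10 combinations and *psmd9* in 2. The replicate block ended the calls of *psmc1a*, *psmc4* and *psmd9* and no other of the 7. The causes of these changes were not tested, apart from the reads counted on alternate-contig rows. Genes under about 1 FPKM rest on few reads, such as 46 for *psmd10* over the *flrt2*-KO libraries.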
